A study of Mus musculus with 6 samples.

Results

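NF-YA occupancy was examined at genes of the ubiquitin-proteasome system in cultured mouse muscle stem cells (MuSCs). Members were chosen by gene symbol alone: every peak annotated to a gene whose symbol starts with Psm and a letter from a to g and then a digit, with Ube2, Fbxo, Fbxl or Fbxw, or with Usp, Cul, Trim or Rnf and then a digit. This took 107 of the 9056 peaks, annotated to 89 genes. The rule itself uses no binding value. The peaks fell into 15 at 12 Psm genes, 14 at 11 Ube2 genes, 1 at 1 Cul gene, 18 at 14 F-box genes, 24 at 21 Rnf genes, 18 at 16 Trim genes and 17 at 14 Usp genes. Of the 89 genes, 75 had 1 peak, 10 had 2 and 4 had 3.

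The study profiled the CCAAT-binding factor NF-Y to learn whether it brings the coactivator TAF4A to its sites, and used CUT&RUN, in which an antibody guides a nuclease to its target on immobilised cells so that the released DNA can be sequenced. All samples were C57BL/6 wild-type MuSCs grown in culture and labelled as activated/proliferating. There were 3 NF-YA libraries and 3 libraries made with mouse IgG, and the values analysed here are those of the 3 NF-YA libraries, the study's biological replicates. With values of 1 group, no condition could be compared. The table measures binding and not expression, so the labelled cell type could not be checked against marker genes. Cells grown in culture stand for activated and not for quiescent MuSCs.

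Ubiquitin is attached to proteins by a relay of an activating enzyme (E1), a conjugating enzyme (E2) and a ligase (E3). E3 ligases choose the substrate: RING proteins, to which most Rnf and Trim proteins belong, act directly, while cullins form scaffolds, on some of which F-box proteins hold the substrate. Ubiquitin-specific proteases, named Usp, remove the tag, and the proteasome, with its barrel-shaped core and its regulatory cap, degrades the tagged protein. In skeletal muscle the system is best known for the breakdown of contractile proteins during atrophy, and in dividing cells for the timed removal of cell cycle regulators. NF-Y recognises the pentamer CCAAT, which often lies shortly upstream of a transcription start site (TSS).

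The following stretches, taken from GRCm38 (mm10), show, for promoter peaks with high levels in each larger family, the CCAAT box nearest to the TSS on its upstream side together with any within 90 bp of it, since these are the letters that NF-Y is known to recognise. Further boxes of the same peaks are not shown. In some peaks, such as those of *Ube2s*, *Ube2c*, *Rnf5* and *Fbxo24*, boxes that are not shown lie nearer to the peak centre than the printed ones. Each is written 5′ to 3′ in the direction of the gene, and capitals mark CCAAT or, where the box lies on the other strand, ATTGG.
Psmb3: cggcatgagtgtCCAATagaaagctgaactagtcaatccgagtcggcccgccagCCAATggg
Psmd4: gtagccaactctATTGGataaccaacctt
Ube2s: cattcaaacggtCCAATcagcggccacgt
Ube2c: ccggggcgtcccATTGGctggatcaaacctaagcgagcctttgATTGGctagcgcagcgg
Ube2f: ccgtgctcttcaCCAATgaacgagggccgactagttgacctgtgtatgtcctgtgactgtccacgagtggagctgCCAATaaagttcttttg
Fbxo24: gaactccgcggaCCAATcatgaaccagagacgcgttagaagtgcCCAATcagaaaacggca
Rnf5: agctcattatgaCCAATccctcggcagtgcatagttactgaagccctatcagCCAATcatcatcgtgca
Rnf26: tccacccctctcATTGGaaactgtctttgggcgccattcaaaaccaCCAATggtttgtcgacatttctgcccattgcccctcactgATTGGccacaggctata
Trim24: ggcgcggcggtcATTGGatggcgctcggc
Usp22: accggcaaaccaCCAATggtgtgacgcga

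The stretch of *Psmb3* covers chr11:97703337-97703398 on the plus strand and that of *Psmd4* chr3:95042693-95042721 on the minus strand. Those of *Ube2s*, *Ube2c* and *Ube2f* cover chr7:4812619-4812647 (minus), chr2:164769829-164769888 (plus) and chr1:91250167-91250258 (plus). *Fbxo24* is shown at chr5:137629035-137629095 (minus), *Rnf5* at chr17:34603734-34603802 (minus) and *Rnf26* at chr9:44113530-44113632 (minus). *Trim24* is shown at chr6:37870734-37870762 (plus) and *Usp22* at chr11:61175222-61175250 (minus). All 10 stretches lie upstream of the TSS of the named gene and overlap 0 exons of any gene in GENCODE M21 or RefSeq. Within the printed stretch of *Rnf5* the box centres were at -98 and -58 bp from the TSS, both on the gene's strand. In that of *Fbxo24* they were at -79 and -47 bp, again on the gene's strand. In that of *Ube2c* they were at -55 and -24 bp, both on the opposite strand, while the 4 other boxes of its peak, 3 of them on the gene's strand, lay farther upstream. In *Rnf26* boxes of both orientations were found, at -101, -67 and -27 bp.

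Levels are normalised reads per peak: the authors' read counts after size-factor scaling of each library, given as whole numbers. Summed over all 9056 peaks they were 319455, 335280 and 341177 in replicates 1, 2 and 3, which corresponded to about 476934, 226882 and 334576 reads in peaks. The member peaks held about 8256, 3879 and 5713 of these reads, with a median of 25.4, 10.8 and 17.65 reads per peak. A count of 3 reads was worth 2.01, 4.43 and 3.06 normalised reads, and 87 of the 107 member peaks exceeded this floor in all 3 libraries. Replicate 2, with the fewest reads in peaks, had 12 member peaks at or under the floor, replicate 3 had 11 and replicate 1 had 1. By the paper's listing, replicate 1 had the fewest sequenced reads, shorter reads than the others and the most called peaks. Whether these differences bear on the floor counts was not tested. Floors given here reflect read counts only. Intervals treat peaks or genes as independent draws and do not cover differences between libraries.

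NF-YA levels at the members spread over a wide range. The median member peak held 17, 16 and 18 normalised reads in replicates 1, 2 and 3 (17.0 ± 1.0 SD, n = 3). Over all peaks the medians were 14, 16 and 15, and over the 5038 peaks of other protein-coding genes 21, 22 and 22 (21.7 ± 0.58). The members thus lay above all peaks in 2 of 3 libraries and level in the other, and below other protein-coding peaks in all 3. Means ranged from 3.0 at *Usp20* to 636 at *Rnf5*. The 2 strongest peaks, at *Rnf5* and *Fbxo24*, held 22.2% of the summed level of all members, and the 10 strongest held 52.7%. Among the members, 37 of 107 (34.6%) were at or above the upper quartile of all peaks, beside 36.4% of all peaks of protein-coding genes, and 21 (19.6%) were at or below the lower quartile, beside 18.1% of other protein-coding peaks. These shares are close to those of protein-coding genes, while over all peaks 25.2% and 25.6% lay in these classes.

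Peaks differ in length, so genes were ordered by level per kb of peak. *Fbxo24* had the highest value with 819 ± 64.5 normalised reads per kb (SD, n = 3), followed by *Rnf5* with 662 ± 41.3, *Ube2s* with 561 ± 59.9, *Trim45* with 498 ± 8.66 and *Usp22* with 475 ± 41.7. The intronic *Rnf181* peak followed with 461 ± 19.5, *Rnf26* with 460 ± 29.8, *Usp1* with 397 ± 43.4, *Psmb3* with 312 ± 29.3, *Ube2f* with 307 ± 13.7 and *Ube2c* with 306 ± 43.9. Neighbours in this order could seldom be told apart. In 3 of the 106 neighbouring pairs the 3 libraries did not overlap, namely *Fbxo24* above *Rnf5*, *Usp1* above *Psmb3* and *Ube2c* above *Trim24*. Among all 9056 peaks *Fbxo24* ranked 7 per kb and *Rnf5* ranked 28, while by reads per peak *Rnf5* ranked 8 and *Fbxo24* ranked 9.

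**Figure D1:**
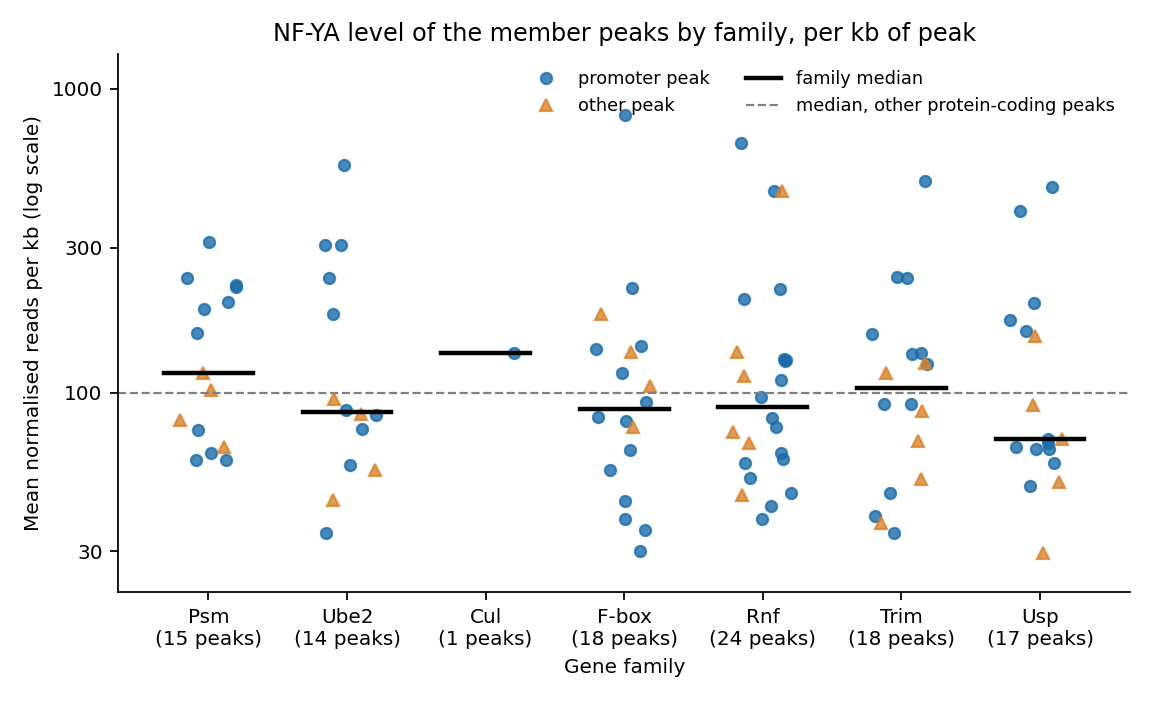
Mean normalised reads per kb (log scale) of each of the 107 member peaks over the 3 NF-YA libraries, by family; circles are promoter peaks, triangles other peaks, bars family medians and the dashed line the median of other protein-coding peaks (99.7). Family medians run from 70.2 for Usp to 116 for Psm, apart from the single Cul peak at 135, and within each family with more than 1 peak values spread widely.

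Proteasome genes with NF-YA peaks came from the core and the cap. Of 50 protein-coding Psm genes, 12 had a peak (24.0%, 95% Wilson interval 14.3 to 37.4%), beside 18.1% of all 21938 protein-coding genes. Peaks were annotated to 2 of 8 alpha subunit genes, 2 of 11 beta subunit genes, 2 of 6 cap ATPase genes and 5 of 14 Psmd genes, which encode other cap proteins and chaperones. None of the 5 activator genes (Psme), the inhibitor gene *Psmf1* or the 4 core assembly chaperone genes (Psmg) had an annotated peak. The remaining gene, *Psmc3ip*, has a proteasome-like symbol but encodes a factor of meiotic recombination.

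*Psmb3*, a beta subunit of the core, had the strongest proteasome peak, at chr11:97703135-97703529 and centred at -67 bp from the TSS, with 125, 134 and 111 normalised reads (123 ± 11.6 SD, n = 3). *Psma3*, an alpha subunit, followed at chr12:70974456-70974964, centred at 89 bp, with 90, 133 and 122 normalised reads (115 ± 22.3). The ranges of these peaks overlapped. *Psma5*, another alpha subunit, had 46, 61 and 55 normalised reads (54.0 ± 7.55) at chr3:108256932-108257203. Its peak also lay within 1000 bp of the TSS of *1700010K24Rik*. The other beta subunit with a peak, the caspase-like *Psmb6*, had 6, 13 and 6 normalised reads (8.33 ± 4.04), all below every library of the 3 core genes above.

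In the cap, *Psmd3*, a lid subunit, held 70, 92 and 83 normalised reads (81.7 ± 11.1 SD, n = 3) at chr11:98682193-98682534. *Psmd4*, a ubiquitin receptor, held 70, 71 and 80 (73.7 ± 5.51) at chr3:95042466-95042796, and its range overlapped that of *Psmd3*. *Psmd10*, which encodes the assembly chaperone gankyrin, held 52, 56 and 65 (57.7 ± 6.66) at chrX:140956592-140956898. This peak was also near the TSS of the autophagy gene *Atg4a*, so its gene name is not unique. The lid subunit *Psmd8* had 2, 34 and 17 normalised reads (17.7 ± 16.0) in an intron, the highest CV (90.6%) among member peaks with a mean of at least 10. Replicate 1, low here, was the library with the most reads in peaks. *Psmd1*, a scaffold of the cap, had 11, 13 and 19 normalised reads (14.3 ± 4.16) at -4832 bp.

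The ATPase *Psmc3* had 3 peaks, and the strongest was not at its promoter. The peak at 7182 bp, in an intron, held 21, 31 and 37 normalised reads (29.7 ± 8.08 SD, n = 3), the intronic peak at 8016 bp held 9, 10 and 10 (9.67 ± 0.58), and the promoter peak at -9 bp held 13, 4 and 10 (9.0 ± 4.58). The promoter peak was below the peak at 7182 bp in all 3 libraries. *Psmc4*, another ATPase, had 8, 4 and 6 normalised reads (6.0 ± 2.0). *Psmc3ip* held 67, 41 and 74 (60.7 ± 17.4) at its promoter and 5, 6 and 7 (6.0 ± 1.0) at -422 bp. Outside *Psmc3ip*, the Psm promoter peaks therefore split into 6 with means of 54.0 to 123 and 3 with means of 6.0 to 9.0, a description made after the values were seen.

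**Figure D2:**
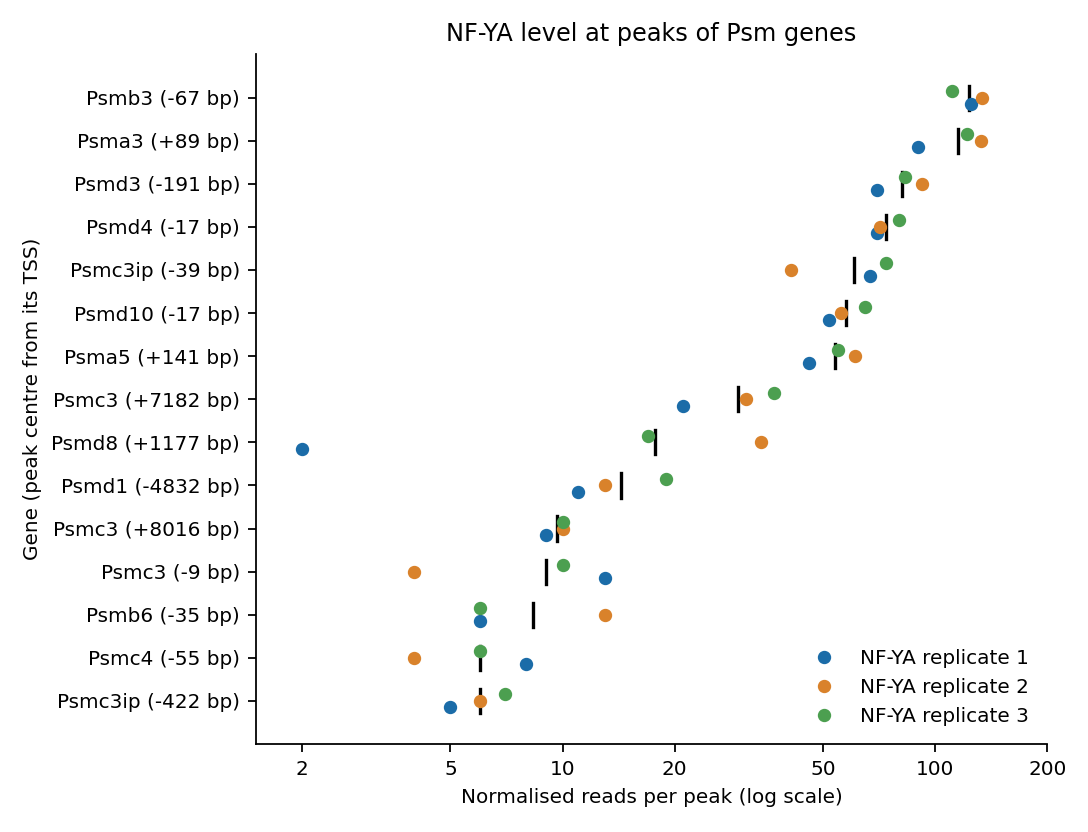
Normalised reads per peak (log scale) of the 15 peaks at Psm genes in the 3 NF-YA libraries, with the mean as a vertical bar and the distance of the peak centre from the TSS in brackets. *Psmb3* and *Psma3* lead with means of 123 and 115, and replicate 1 stands apart at *Psmd8* with 2 normalised reads against 34 and 17.

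E2 genes with the highest levels encode enzymes of the anaphase-promoting complex, the ligase that opens the way out of mitosis. *Ube2s*, which extends ubiquitin chains for this complex, held 218, 270 and 251 normalised reads (246 ± 26.3 SD, n = 3) at chr7:4812595-4813033. *Ube2c*, which starts these chains, held 193, 208 and 253 (218 ± 31.2) at chr2:164769319-164770030. The libraries of both genes overlapped. *Ube2f*, an E2 for the ubiquitin-like protein NEDD8 that activates cullins, held 106, 98 and 106 (103 ± 4.62) at its promoter and 14, 9 and 12 (11.7 ± 2.52) at -1966 bp. All 3 libraries of the *Ube2f* promoter lay below those of *Ube2c* in reads per peak, while per kb the 2 genes had nearly the same mean.

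Further E2 genes were weaker. *Ube2t*, the E2 of the Fanconi anaemia pathway, had 68, 55 and 60 normalised reads (61.0 ± 6.56 SD, n = 3). The peaks of *Ube2d1*, *Ube2d2*, *Ube2d3*, *Ube2h*, *Ube2v1* and *Ube2w* had means between 3.67 (*Ube2d2*) and 20.7 (*Ube2d3*). By gene, 10 of 37 Ube2 genes (27.0%, 15.4 to 43.0%) had an annotated peak, or 11 when *Ube2d2* was matched by identifier.

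Among cullins, 1 of 8 genes had a peak: *Cul3*, the scaffold that takes its substrates through BTB proteins. Its peak at chr1:80340872-80341354, centred at -633 bp, held 58, 49 and 88 normalised reads (65.0 ± 20.4 SD, n = 3), with replicate 3 above the other two.

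F-box genes had peaks at 14 of 77 genes (18.2%, 11.2 to 28.2%), a share near the 18.1% of all protein-coding genes, with 10 of 36 Fbxo, 2 of 18 Fbxl and 2 of 23 Fbxw genes. *Fbxo24* had by far the strongest peak, at chr5:137628449-137629217, with 573, 663 and 654 normalised reads (630 ± 49.6 SD, n = 3). The peak is centred in the 5′ untranslated region and is also near the TSS of *Lrch4* and *Gm20605*. *Fbxo11* had 78, 81 and 95 (84.7 ± 9.07), centred at -1020 bp and so just outside the promoter limit of 1000 bp. *Fbxo5*, which encodes the anaphase-promoting complex inhibitor EMI1, held 103, 65 and 64 (77.3 ± 22.2) at 46 bp and 29, 16 and 27 (24.0 ± 7.0) at -387 bp. The *Fbxo5* peaks did not overlap in level. The other F-box peaks had means of 3.0 (*Fbxo31*) to 50.7 (*Fbxw11*, a substrate receptor of the beta-TrCP kind).

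Rnf genes formed the largest group, with peaks at 21 of 85 genes (24.7%, 16.8 to 34.8%). *Rnf5*, a ligase of the endoplasmic reticulum membrane, held 591, 665 and 653 normalised reads (636 ± 39.7 SD, n = 3) at chr17:34603459-34604420, centred at -249 bp. This peak is also near the TSS of the lipid enzyme gene *Agpat1*. *Rnf181* was bound in an intron at 4470 bp, with 179, 174 and 189 (181 ± 7.64), and at -4393 bp with 62, 62 and 30 (51.3 ± 18.5), the latter near the TSS of *Vamp5*. The intronic peak also lay within 1000 bp of the start of another *Rnf181* transcript. *Rnf26*, also a ligase of the endoplasmic reticulum, held 166, 189 and 179 (178 ± 11.5) at chr9:44113422-44113808. The ranges of *Rnf26* and the intronic *Rnf181* peak overlapped. The other 20 Rnf peaks had means of 4.0 (*Rnf121*) to 116 (*Rnf6*).

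Trim genes had peaks at 16 of 68 genes (23.5%, 15 to 34.9%). *Trim45* held 290, 284 and 294 normalised reads (289 ± 5.03 SD, n = 3) at chr3:100921938-100922518, a CV of 1.74%. *Trim24*, a chromatin reader with a bromodomain, held 97, 72 and 96 (88.3 ± 14.1), and *Trim26* held 88, 64 and 75 (75.7 ± 12.0). All libraries of *Trim45* were above all of *Trim24* and *Trim26*, which overlapped each other. *Trim41*, bound at -3174 bp, had 6, 25 and 18 (16.3 ± 9.61) and with 58.8% the third highest CV among member peaks with a mean of at least 10. *Trim12c* has close paralogues, and the authors removed reads that map to several places, so its 31, 21 and 44 normalised reads are uncertain. The other Trim peaks had means of 4.67 (*Trim32* and *Trim72*) to 59.0 (*Trim16*).

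Deubiquitinase genes of the Usp family had peaks at 14 of 56 genes (25%, 15.5 to 37.7%). *Usp22*, the protease of the SAGA coactivator that acts on histone H2B, held 263, 307 and 308 normalised reads (293 ± 25.7 SD, n = 3) at chr11:61175003-61175618. *Usp1*, which acts on FANCD2 and PCNA in DNA repair, held 230, 189 and 194 (204 ± 22.4) at chr4:98923127-98923641, below every library of *Usp22*. *Usp42* followed with 83, 59 and 70 (70.7 ± 12.0). *Usp2* had 3 peaks, of which the intronic peak at 5776 bp was the highest, with 31, 28 and 44 (34.3 ± 8.51), while its promoter peak held 14, 16 and 14 (14.7 ± 1.15). *Usp31* had 7, 18 and 5 (10.0 ± 7.0) at its promoter, a CV of 70.0% and the second highest among member peaks with a mean of at least 10. *Usp39* carries the family name but is known as a splicing factor without protease activity, and it had 40, 41 and 47 (42.7 ± 3.79). The other Usp peaks had means of 3.0 (*Usp20*) to 57.7 (*Usp5*, which disassembles free ubiquitin chains).

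Of 13 genes known from muscle, mostly for protein breakdown, 4 had an annotated peak (30.8%), beside 18.1% of all protein-coding genes. The atrophy ligases *Fbxo32* (atrogin-1) and *Trim63* (MuRF1) had none within the annotation distance: the nearest peak lay 10682 bp from the TSS of *Fbxo32* and 76274 bp from that of *Trim63*. The peak nearest to *Fbxo32* lay inside the gene, just beyond that distance, and carried no gene name. It held 13, 9 and 12 normalised reads (11.3 ± 2.08 SD, n = 3), above the floor in all 3 libraries. *Fbxo30*, *Fbxo40*, *Fbxo21*, *Trim54*, *Trim55*, *Usp19* and *Rnf115* also had no annotated peak, with the nearest at 7758 bp from *Usp19* and 62630 bp or more from the others. *Trim32*, mutated in a limb-girdle muscular dystrophy, had 10, 1 and 3 normalised reads (4.67 ± 4.73 SD, n = 3), of which replicates 2 and 3 were at or under the floor. *Trim72*, which takes part in membrane repair, had 5, 4 and 5 (4.67 ± 0.58), with replicate 2 under the floor. *Fbxo31* had 3 peaks, the strongest in an intron at 5284 bp with 45, 55 and 41 (47.0 ± 7.21), and promoter peaks with means of 5.33 ± 2.08 and 3.0 ± 2.0. Among the peaks of these genes, *Cul3* and the intronic *Fbxo31* peak exceeded the median of other protein-coding peaks in all 3 libraries.

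Taken by gene, 88 of the 381 protein-coding genes of the families had an annotated peak (23.1%, 19.15 to 27.6%), beside 18.1% of all protein-coding genes. A promoter peak was found at 70 of them (18.4%, 14.8 to 22.6%), beside 14.1%. Intervals of all 7 families reached across 18.1%. Other genes of the pathway, from 7 lists without members, gave 36 of 117 (30.8%, 23.1 to 39.6%). These shares match genes by symbol. Matched by identifier, the families gave 23.36% (19.39 to 27.86%) and all protein-coding genes 19.01%. With any peak within 1000 bp of a TSS of the gene, the families gave 23.1% and all genes 19.12%. That value lay just below the lower end of the families' interval (19.15%). Whether the shares of the families or lists differ from that of all genes was not tested.

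**Figure D3:**
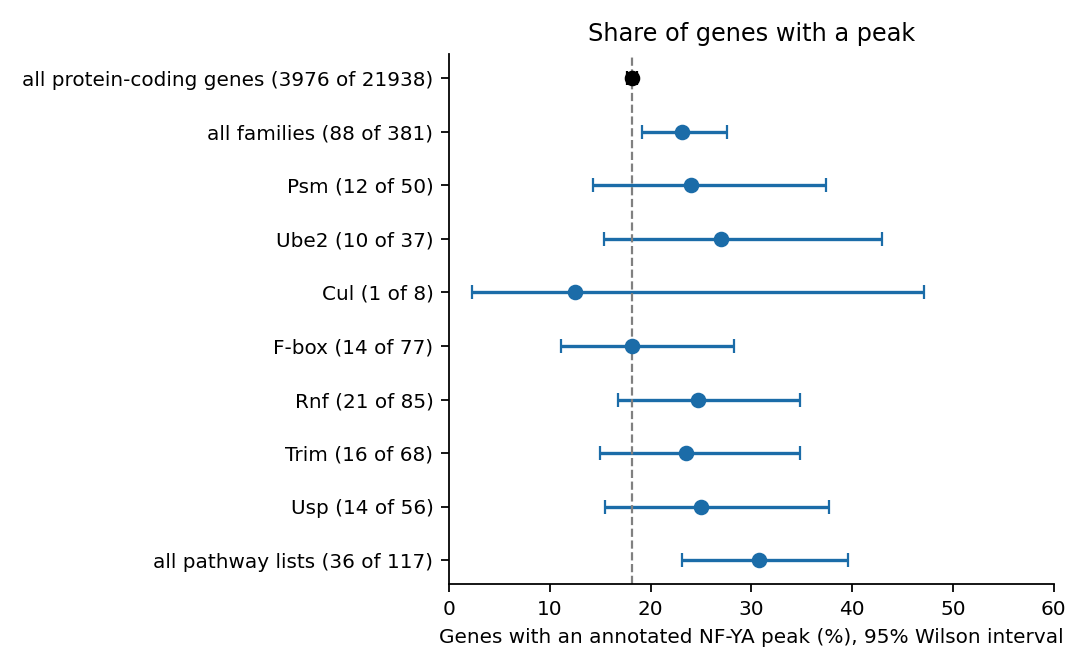
Percent of protein-coding genes with an annotated NF-YA peak, with 95% Wilson intervals, for all genes (dashed line, 18.1%), the families together (23.1%), each family and the pathway lists together (30.8%). The interval of each single family overlaps the dashed line. Those of the families together (19.15 to 27.6%) and of the pathway lists (23.1 to 39.6%) lie above it. Genes are matched by symbol, and by identifier the share of all genes is 19.01%.

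By role, the other pathway genes with a peak were 3 of 13 for ubiquitin and E1 enzymes, 7 of 21 for cullin partners, 3 of 17 for HECT and RBR ligases, 4 of 16 for other RING ligases, 5 of 16 for the anaphase-promoting complex, 8 of 18 for other deubiquitinases and 6 of 16 for proteasome partners. The ubiquitin gene *Ubb* held 98, 168 and 221 normalised reads (162 ± 61.7 SD, n = 3) at its promoter, and replicate 1 was the lowest library. *Ccnf*, an F-box protein outside the symbol rule, held 116, 80 and 110 (102 ± 19.3). *Cdc20*, an activator of the anaphase-promoting complex, held 80, 68 and 45 (64.3 ± 17.8). The deubiquitinase *Cyld* had 304, 279 and 326 (303 ± 23.5), more than any Usp gene by mean. *Vcp*, which unfolds ubiquitinated proteins, held 232, 242 and 284 (253 ± 27.6), above every library of every Psm gene. *Nfe2l1*, a transcription factor of proteasome genes, had 6 peaks, the strongest with 195, 247 and 250 (231 ± 30.9) at -109 bp.

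Some family genes lay beside a peak that carried another gene's name. *Rnf40*, whose product forms the histone H2B ligase with RNF20, had a peak 391 bp from its TSS that was annotated to *Ccdc189*, with 165, 192 and 246 normalised reads (201 ± 41.2 SD, n = 3). Its partner gene *Rnf20* had 11, 7 and 2 (6.67 ± 4.51). The alpha subunit gene *Psma2* had a peak at 87 bp annotated to *Mrpl32*, with 50, 69 and 43 (54.0 ± 13.5). The activator gene *Psme2* lay 550 bp from a peak annotated to *Rnf31*, with 11, 13 and 11 (11.7 ± 1.15). Conversely, 23 of the 78 member promoter peaks (29.5%, 20.5 to 40.4%) lay within 1000 bp of a TSS of another gene, beside 31.5% of promoter peaks of other protein-coding genes. Counting protein-coding neighbours alone, the shares were 14.1% and 17.0%. Binding values cannot assign such a peak to either gene.

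Most member peaks lay at promoters. In 78 of 107 (72.9%, 63.8 to 80.4%) the centre was within 1000 bp of the gene's TSS, a share close to the 68.4% of all peaks of protein-coding genes. Of these 78, 38 spanned the TSS, 52 were centred upstream and 26 downstream, with a median distance of 137.5 bp. The 29 others lay between 1020 and 9872 bp from the TSS, and 4 of them were within 1000 bp of the start of another transcript of their gene. By annotation, 63 peaks were centred upstream of the gene, 23 in introns, 18 in 5′ untranslated regions and 3 in other exonic sequence. Peaks inside the limit and near it included *Fbxl20* at 786 bp (4.0 normalised reads) and *Usp43* at -807 bp (5.33), and just outside were *Fbxo11* at -1020 bp (84.7) and *Psmd8* at 1177 bp (17.7).

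In reads per peak, promoter peaks were higher than the other member peaks in each library, by a log2 ratio of medians of 1.0, 0.79 and 0.20 (0.66 ± 0.42 SD, n = 3). The same ratio in other protein-coding peaks was 1.37, 1.21 and 1.3 (1.29 ± 0.08), above that of the members in all 3 libraries. Promoter peaks of members were also longer, with a median of 220 bp against 175 bp. Per kb, the median of promoter member peaks was 115, 107 and 90.45 in replicates 1, 2 and 3, and that of the other member peaks 69.1, 87.6 and 92.4, so the direction turned in replicate 3. With the limit at 5000 bp, which leaves few distal peaks, the members' ratio turned to -0.38. *Rnf181* at 4470 bp, *Fbxo11* at -1020 bp and *Rnf181* at -4393 bp were the highest members outside the promoter limit. Of these, the *Rnf181* peak at 4470 bp lay near the start of another transcript of its gene. The peak at -4393 bp lay near the TSS of *Vamp5*.

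**Figure D4:**
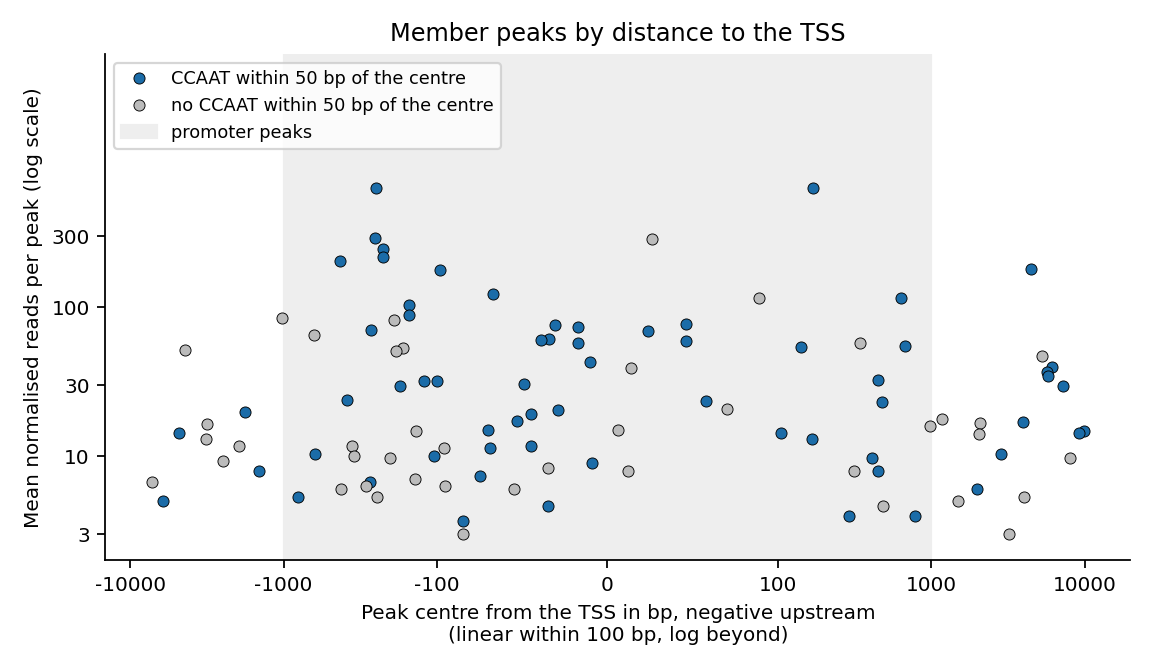
Mean normalised reads per peak (log scale) of the 107 member peaks against the distance of the peak centre from the TSS in bp, negative upstream; blue points hold CCAAT within 50 bp of the centre, grey points do not, and the grey band marks the 78 promoter peaks. Strong peaks crowd near the TSS, with the intronic *Rnf181* peak (181) the highest outside the band.

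CCAAT was found on either strand within 50 bp of the centre in 65 of 107 member peaks (60.7%, 51.3 to 69.5%). In windows of the same 101 bp placed 1000 bp to the left and right the counts were 14 (13.1%) and 9 (8.41%). Over all peaks 52.9% had CCAAT there, and over other protein-coding peaks 59.0%, so for this pentamer the share in the members was near that of other genes. It was 51 of 78 in promoter peaks (65.4%) and 14 of 29 in the rest (48.3%), beside 65.45% and 45.2% in other protein-coding peaks. By family it was 8 of 15 for Psm, 8 of 14 for Ube2, 11 of 18 for F-box, 15 of 24 for Rnf, 12 of 18 for Trim and 11 of 17 for Usp, and the *Cul3* peak had none. Stronger members held CCAAT more often: 40 of 53 above the median level (75.5%, 62.4 to 85.1%) and 25 of 54 at or below it (46.3%, 33.7 to 59.4%), a difference of 29.2 percentage points with a 95% Newcombe interval of 10.7 to 45.0. The same split was not made in other peaks, so whether this difference is particular to the members was not tested. Among members at or above the upper quartile of all peaks, *Psmd3* (81.7 normalised reads), *Usp5* (57.7) and *Rnf181* at -4393 bp (51.3) had no CCAAT anywhere in the peak. Others, such as *Trim45*, *Psma3*, *Fbxo11* and *Cul3*, had theirs more than 50 bp from the centre.

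Counting over whole peaks, 29 member peaks had no CCAAT, 41 had 1, 15 had 2, 15 had 3, 3 had 4, and 1 each had 5 (*Usp1*), 6 (*Ube2c*), 7 (*Fbxo24*) and 10 (*Rnf5*). Longer peaks offer more sequence, and *Rnf5* and *Fbxo24* were also among the longest. All 7 boxes of *Fbxo24* and 9 of the 10 boxes of *Rnf5* were on the strand of the gene. The 78 promoter peaks held 128 boxes, of which 85 (66.4%) lay upstream of the TSS, with a median upstream position of -100 bp and quartiles of -259 and -48 bp. In promoter peaks of other protein-coding genes 77.2% lay upstream, with a median of -92 bp. Between 40 and 120 bp upstream lay 24.2% of the members' boxes (17.6 to 32.3%) and 33.6% of those of other genes (32.4 to 34.9%). The members' boxes were on the strand of the gene in 76 of 128 cases (59.4%), and those of other genes in 50.9%. Boxes of 1 peak are not independent: *Rnf5* and *Fbxo24* held 16 of the 76, and without them the members' count was 60 of 111 (54.1%).

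**Figure D5:**
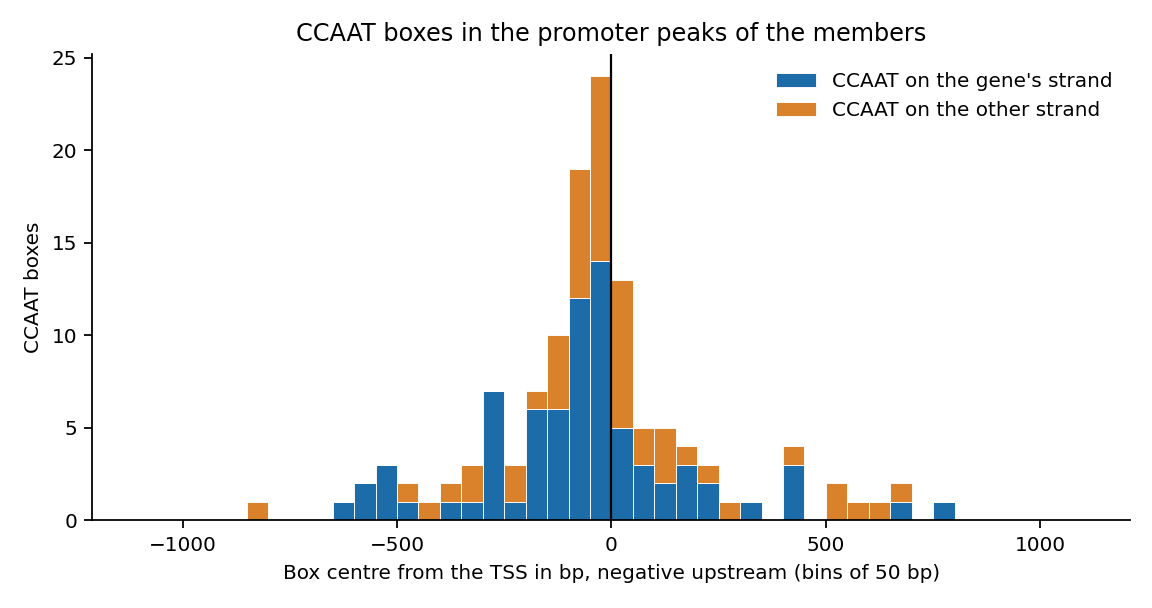
Number of CCAAT boxes in the 78 member promoter peaks by distance of the box centre from the TSS in bp (bins of 50 bp, negative upstream), stacked by strand relative to the gene. Of the 128 boxes 85 are upstream, most of them close to the TSS, and 76 are on the gene's strand.

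Spacing was taken between neighbouring boxes on the same strand. Among 56 such pairs in member peaks the median spacing was 47.5 bp, with 10 pairs (17.9%) at 30 to 32 bp, 2 (3.57%) at 35 to 37 bp and 8 (14.3%) at 40 to 42 bp. Among 2576 pairs in other protein-coding peaks the shares were 12.6%, 1.94% and 9.55%. Within these ranges *Ube2c* had a spacing of 31 bp on each strand and another of 42 bp, *Usp1* of 32 bp, and *Fbxo24* of 31, 32 and 41 bp. *Rnf5* and *Psmb3* had pairs at 40 and 42 bp, seen in the stretches printed above. Other pairs lay outside the ranges, at 95 bp in *Ube2c*, 55 and 57 bp in *Usp1*, and 61, 92 and 125 bp in *Fbxo24*. Spacings in *Rnf5* ran from 24 to 145 bp. Several pairs come from the same peak, so they are not independent, the 3 ranges were picked after earlier results were known, and no test was made.

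Motifs of other factors were counted on both strands within 100 bp of the centre. The GC box GGGCGG, read by SP1, was in 60 of 107 members (56.1%), beside 32.8% of all peaks and 49.0% of other protein-coding peaks. In promoter peaks alone the shares were close, with 62.8% in members and 60.8% in other protein-coding genes. By family the GC box was in 18 of 24 Rnf peaks (75%) and in 5 of 15 Psm peaks (33.3%). The cAMP response element TGACGTCA was in 4 members (3.74%), at *Trim26*, *Rnf44*, *Rnf7* and *Rnf122*, beside 1.22% of all peaks and 1.73% of other protein-coding peaks. Among promoter peaks alone its share was 2.56% in members and 2.09% in other protein-coding genes. The E-box CACGTG was in 8 (7.48%, all peaks 5.86%), the cell cycle element TTTGAA in 8 (7.48%, all peaks 8.27%), and the antioxidant element TGACNNNGC in 8 (7.48%, all peaks 12.5%). In other protein-coding peaks these 3 shares were 7.2%, 7.62% and 11.5%. These are matches of letters and not measured binding of other factors.

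Replicates ranked the member peaks alike, with Pearson's r across peaks on log2(value + 1) of 0.91, 0.93 and 0.94 for the pairs of replicates 1 and 2, 1 and 3, and 2 and 3. These peaks share libraries, so r is a description. The median CV of a member peak was 20.15% (16.35 to 25.15%), beside 20.75% that counting alone would give at these levels. In other protein-coding peaks it was 21.3%, and over all peaks 25.4%. In the 76 members with a mean of at least 10 it was 17.2%, beside 14.8% from counting. A CV under 20% was seen in 53 members and above 50% in 17. The other 31 members had means under 10, where a single library often lay near the floor.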

How the data were processed

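NF-YA CUT&RUN values came from 1 deposited peak table with 3 NF-YA columns and 0 columns of unknown sample. IgG values were not analysed here. According to the methods and the submitters' processing notes, the authors trimmed reads with Trimmomatic 0.39, aligned them with STAR 2.7.9a to mm10, removed duplicates with Picard 2.25.5 as well as spliced and multi-mapping reads, called peaks with MACS2, unified them and counted reads per peak with featureCounts. The deposited values are of unit score: counts divided by DESeq2 1.30.0 size factors and rounded by the authors. They are not corrected for peak length, and a shift shared by all peaks would stay hidden. Peaks were selected in the same libraries, which favours peaks high by chance. Each was annotated to the nearest gene within 10000 nt of a TSS. Of the symbol rule, the closing full stop was read as punctuation.

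The worth of 1 read was estimated per library (0.67, 1.48 and 1.02) from the whole numbers that occur. The estimate was tested on simulated data. CCAAT was searched in GRCm38 within 50 bp of peak centres, and genes were taken from GENCODE M21, where 89 member genes matched by identifier and 88 by symbol. CVs expected from counting assume Poisson reads and are scaled to the median of an SD over 3 libraries. Shares have 95% Wilson intervals, differences Newcombe intervals. Printed sequences come from the NCBI RefSeq copy of GRCm38, with the coordinates of the peak table counted from 1. Python 3.11.15, numpy 2.4.6, scipy 1.17.1, pandas 2.3.3, pysam 0.24.0 and matplotlib 3.10.9 were used.

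Named were all Psm peaks, the 3 genes with the strongest peak in each other family, members with 3 peaks, the 3 highest CVs at a mean of at least 10, and 13 muscle genes. Further genes were named after their values were seen (*Fbxw11*, *Trim16*, *Usp5*, *Ube2t*, *Rnf6*, *Rnf121*, *Rnf20*, *Rnf40*, *Rnf44*, *Rnf7*, *Rnf122*, *Psma2*, *Psme2*, *Trim12c*, *Ube2d1*, *Ube2d2*, *Ube2d3*, *Ube2h*, *Ube2v1*, *Ube2w*, *Fbxl20*, *Usp20*, *Usp39*, *Usp43* and the pathway genes with values). Members and lists were chosen with earlier results of these data known. Some genes that the rule names are not reported here. No hypothesis test was run. Alternatives were other distance limits and windows, a minimum mean of 10, values per kb, the total in peaks as library size, the strongest peak per gene, and leaving out each library. Leaving out *Psmc3ip* and *Usp39* was added after seeing the data.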

Additional observations from a re-analysis of the deposited data

How the results depend on the processing

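Of 45 alternative values for 8 results, 32 stayed within the interval or SD of the reported value, 12 moved and 1 reversed. The median level moved from 17.0 normalised reads to 34.2 with a minimum mean of 10, to 22.3 with the strongest peak of each gene, and to 93.95 as a value per kb, which is another unit. Leaving out each library gave 16.5 to 17.5 for the median level and 13.9 to 19.1% for the median CV, which also comes from fewer libraries. The promoter share rose to 90.7% within 5000 bp. The log2 promoter ratio was 1.16 with a minimum mean of 10, 0.33 per kb and -0.377 within 5000 bp, and the cause of the reversal was not tested. Without each library in turn it was 0.49 to 0.90. The CCAAT share was 72.0% within 100 bp and 72.9% over whole peaks, where more sequence is searched, and 26.2% for a stricter consensus (CCAAT after 2 purines and before C or G and a purine). Other protein-coding peaks had the stricter consensus in 30.3%. In promoter peaks alone its share was 25.6% in members and 34.7% in other protein-coding genes. The share of family genes with a peak was 18.4% for promoter peaks alone and 17.85% with a minimum mean of 10, for which fewer peaks qualify, beside 14.6% of all protein-coding genes. Shared promoters fell to 14.1% with protein-coding genes alone. Without each library the difference in CCAAT share between stronger and weaker members was 25.4 to 29.2 points. Without *Psmc3ip* and *Usp39* the median level was 16.8, the promoter share 72.1% and the CCAAT share 60.6%. Single libraries decided some named levels: *Psmd8* went from 17.7 to 9.5 without replicate 2, *Trim32* from 4.67 to 2.0 without replicate 1, and *Usp31* at its promoter from 10.0 to 6.0 without replicate 2. No paired analysis was possible because no IgG values were analysed and no test was run. The number of reads in peaks limits the 31 peaks with means under 10 most, and replicate 2 most among the libraries.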
